A study of Homo sapiens with 6 samples.

Results

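TNF superfamily ligands were read in macrophage-like cells derived from THP-1, a leukaemia line of human monocytic origin, with and without the chemokine CXCL10. The members were the 10 gene names TNF, LTA, LTB, TNFSF9, TNFSF10, TNFSF12, TNFSF13, TNFSF13B, TNFSF14 and TNFSF15, and all 10 were found among the 57316 gene names in the count tables. In the CXCL10 group, the cells were given the phorbol ester PMA (100 ng/ml, 48 h) and then recombinant human CXCL10 (100 ng/ml, 24 h). The control group had the same PMA treatment and then 24 h in a control solution. Polyadenylated RNA gave 3 CXCL10 libraries and 3 control libraries, numbered 1, 3 and 4 in each group. The cells are 1 cell line, and the labels do not say whether the libraries came from separate cultures, and p-values here reflect no more than the spread among these libraries, which may be technical.

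Ligands of the TNF superfamily are mostly made as membrane proteins that work as trimers, and several are cut from the cell surface into soluble cytokines. They bind receptors of the TNF receptor superfamily, which can recruit TRAF adaptors and switch on NF-kB and, where the receptor carries a death domain, can also start apoptosis. Macrophages are known as a main source of TNF itself, and cells of the myeloid lineage also make the B cell survival factors encoded by TNFSF13B and TNFSF13.

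The CXCL10 libraries held 36.9, 41.0 and 34.8 M counted reads and the control libraries 38.9, 38.0 and 36.0 M. Control replicate 4 stood apart: its median root-mean-square difference from the other libraries was 0.70 on the log2 scale over all genes tested, against 0.44 to 0.49 for the other 5. It also had the highest share of reads from ribosomal protein genes, 12.8%, where the other controls had 9.85% and 9.67%. The CXCL10 libraries had 9.62%, 7.67% and 8.40%, each below every control. The part of these differences in the results below was not tested. CPM is reads scaled to the TMM-adjusted library total, except for the marker sums here, which were scaled to all counted reads without that adjustment. Markers of macrophages and monocytes summed to 2649 to 2667 CPM in CXCL10 libraries and 2349 to 2545 CPM in control libraries. Reads were lacking for 0 of 9 markers, and CSF1R alone held 59.6% of those reads. T cell markers summed to 0.288 to 0.488 CPM in CXCL10 and 0.194 to 0.566 CPM in control libraries, with CD2 at 0 among 5 genes. The ranges were 3.17 to 3.45 and 3.13 to 3.83 CPM for 5 B cell markers (MS4A1 at 0). For 4 NK cell markers they were 2.88 to 4.02 and 2.67 to 4.45 CPM, with 79.9% of those reads from NCAM1. They were 3.28 to 4.61 and 2.83 to 4.06 CPM for 4 fibroblast markers. For 4 epithelial markers (EPCAM at 0) they were 0.115 to 0.596 and 0.211 to 0.617 CPM. The 4 endothelial markers summed to 255 to 345 CPM in CXCL10 and 262 to 329 CPM in control libraries, and 99.2% of those reads belonged to PECAM1, which myeloid cells also express.

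Promoter windows are shown for 4 ligands on which the results turn: TNFSF14, the most abundant member, and TNF, TNFSF13 and TNFSF9, which lay at the extremes in control replicate 4. Each window runs 5′ to 3′ on the strand of the gene, from 250 bases before to 50 bases after a transcript start of RefSeq in the build GRCh38.p14, and 9 of the 10 members had an entry (TNFSF12 had none). Where a gene had several entries, the window whose start was nearest to the first exon start in the count tables was taken. That distance was 0 bases for TNF and TNFSF9, 10 bases for TNFSF13 and 428 bases for TNFSF14. It was 45 to 97 bases for LTA, LTB and TNFSF10. The windows of TNFSF15 and TNFSF13B, counted among the 9 below, lie 13509 and 18389 bases from the first annotated start. Capitals mark matches on either strand to an NF-kB-type motif (GGGNNNNNCC), an AP-1-type motif (TGANTCA), the TATA box letters TATAAA and the GC box letters GGGCGG. The windows lie at chr19:6670111-6670410 on the minus strand for TNFSF14, chr6:31575315-31575614 on the plus strand for TNF, chr17:7558032-7558331 on the plus strand for TNFSF13 and chr19:6530776-6531075 on the plus strand for TNFSF9.
TNFSF14: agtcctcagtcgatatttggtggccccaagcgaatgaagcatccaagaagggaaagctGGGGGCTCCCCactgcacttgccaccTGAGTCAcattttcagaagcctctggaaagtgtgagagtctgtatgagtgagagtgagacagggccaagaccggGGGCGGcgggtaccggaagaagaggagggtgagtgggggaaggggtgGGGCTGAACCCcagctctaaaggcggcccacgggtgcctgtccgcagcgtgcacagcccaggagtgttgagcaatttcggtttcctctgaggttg
TNF: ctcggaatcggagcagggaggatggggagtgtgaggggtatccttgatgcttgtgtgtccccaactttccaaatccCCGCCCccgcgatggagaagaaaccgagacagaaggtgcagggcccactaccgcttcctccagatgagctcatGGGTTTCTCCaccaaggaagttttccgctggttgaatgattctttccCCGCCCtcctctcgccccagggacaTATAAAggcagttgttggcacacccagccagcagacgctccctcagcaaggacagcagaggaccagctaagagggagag
TNFSF13: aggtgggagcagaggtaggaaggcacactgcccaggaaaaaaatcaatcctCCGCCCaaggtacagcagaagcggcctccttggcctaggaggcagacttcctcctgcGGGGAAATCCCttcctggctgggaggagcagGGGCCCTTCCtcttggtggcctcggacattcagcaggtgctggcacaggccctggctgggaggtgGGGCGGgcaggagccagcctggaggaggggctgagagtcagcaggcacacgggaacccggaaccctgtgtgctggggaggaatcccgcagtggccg
TNFSF9: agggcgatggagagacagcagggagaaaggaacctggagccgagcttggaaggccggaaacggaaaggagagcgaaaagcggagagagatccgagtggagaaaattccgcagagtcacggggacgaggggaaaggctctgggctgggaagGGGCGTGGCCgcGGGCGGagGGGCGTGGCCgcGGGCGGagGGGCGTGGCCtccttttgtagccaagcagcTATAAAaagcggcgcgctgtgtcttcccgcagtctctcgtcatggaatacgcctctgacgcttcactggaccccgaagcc

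TATA box letters stood 29 bases before the start in TNF and 30 bases before it in TNFSF9, and no such match was in the TNFSF13 or TNFSF14 window. Among the 9 members with a window 3 held these letters (TNF, TNFSF9 and TNFSF10), and 11.5% of all 35116 promoter windows did. The NF-kB-type letters are loose, and 58.7% of all windows and 7 of the 9 members held at least 1 match. TNF had 1, which began 101 bases before the start, and TNFSF9 had 3, at 100, 80 and 60 bases, which alternate with 2 GC boxes in a short repeat. TNFSF13 and TNFSF14 had 3 and 4 matches, among them overlapping pairs that begin 1 base apart. The AP-1-type letters were in the TNFSF14 window, 166 bases before the start, and in that of TNFSF15, and in 7.71% of all windows. GC box letters were in 4 of the 9 windows and in 45% of all windows. In the 4 windows shown, no match to one motif shared bases with a match to another. These matches describe letters only.

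Comparing CXCL10 with control asked which transcripts of macrophage-like cells differ after a day with the chemokine. No TNF superfamily ligand passed the test: edgeR's quasi-likelihood test, adjusted by Benjamini-Hochberg over 16531 genes, called 0 members higher and 0 lower, with adjusted p-values from 0.743 to 0.999. Over all genes tested the same rule called 0%. Of the 10 members 8 had enough reads to be tested, all except LTA and TNFSF12. At an unadjusted p under 0.05 edgeR counted 0 of the 8, where 7.14% of all genes tested fell under that value, and DESeq2 and limma-voom also counted 0 members. The 2 groups overlapped for each of the 8, while 12.2% of all genes tested separated the groups. Fold changes of the 8 ran from -0.28 to 0.50 on the log2 scale, with 4 above and 4 below 0, and a median of 0.04 beside 0.02 for all genes tested. Without control replicate 4, 2 of the 8 were above 0 and the median was -0.12, where all genes tested had 9080 of 17116 above 0 and a median of 0.017.

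**Figure D1:**
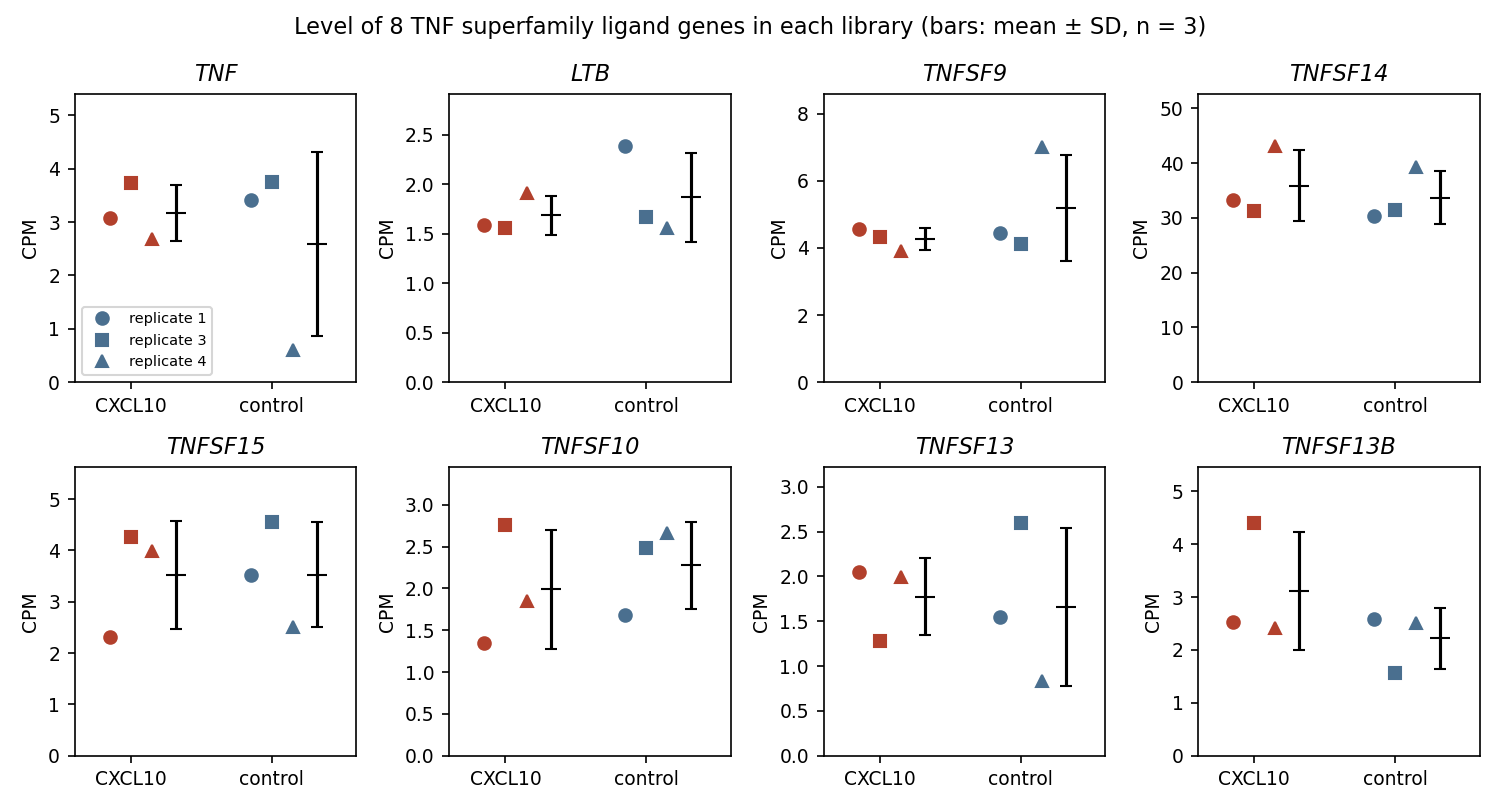
CPM of the 8 tested ligand genes in each library, with CXCL10 in red and control in blue; marker shapes stand for replicates 1, 3 and 4, and bars give the mean ± SD (n = 3). For each gene the 2 groups overlap, and for TNF control replicate 4 lies at 0.598 CPM, below the other 5 libraries.

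TNF, LTA and LTB encode tumour necrosis factor and the lymphotoxins, and they are neighbours in the major histocompatibility complex. TNF, the inflammatory cytokine that signals through TNFRSF1A and TNFRSF1B, lies on the plus strand of chromosome 6 from 31575565 to 31578336 (hg38). It had 3.07, 3.73 and 2.69 CPM in CXCL10 replicates 1, 3 and 4, against 3.42, 3.76 and 0.598 CPM in control replicates 1, 3 and 4. Control replicate 4 alone was low, with 20 reads where the other libraries had 96 to 161, and the other 2 controls lay within or just above the CXCL10 range. The means were 3.17 ± 0.527 CPM with CXCL10 and 2.59 ± 1.73 CPM in controls (SD, n = 3 each). This gave a log2 fold change of 0.28 ± 0.44 (SE, edgeR adjusted p = 0.905), with a 95% interval from -0.66 to 1.22. Without control replicate 4 it was -0.17, and it was 0.66 without control replicate 3.

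The gap of TNF in control replicate 4 was wide for the library. Among 12623 genes with at least 1 CPM in each of the other 5 libraries, control replicate 4 lay at least 4-fold below the lowest of the others for 19, or 0.151%, and TNF was one of them at 4.50-fold, ranked 11 by that measure. This measure was chosen after the values of TNF had been seen, and no test goes with it. TNFSF13 lay 1.52-fold below the lowest other library.

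By the root-mean-square difference of centred log2 CPM over the 6 libraries, the 3 genes nearest to TNF among 10297 with a mean of at least 5 CPM were PPP1R10 (0.24), PMM2 (0.26) and DNAJA3 (0.32). PPP1R10, which encodes a regulatory subunit of protein phosphatase 1, had 13.5, 13.5 and 14.7 CPM with CXCL10, against 12.6, 13.2 and 3.05 CPM in controls. PMM2, a phosphomannomutase gene of protein glycosylation, had 10.2, 9.60 and 10.9 CPM with CXCL10, against 8.33, 9.34 and 1.97 CPM in controls. DNAJA3, which encodes a mitochondrial co-chaperone, had 30.9, 22.2 and 26.9 CPM with CXCL10, against 21.1, 23.8 and 5.26 CPM in controls. All 3 share with TNF a low value in control replicate 4, which follows from choosing them by their likeness to TNF over these libraries.

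LTB encodes the membrane-bound lymphotoxin beta chain, which holds lymphotoxin alpha at the cell surface as a ligand of LTBR. The gene is on the minus strand of chromosome 6 from 31580525 to 31582522. It had 1.59, 1.55 and 1.91 CPM in CXCL10 replicates 1, 3 and 4, against 2.38, 1.67 and 1.55 CPM in control replicates 1, 3 and 4. Highest was control replicate 1, and the other 2 controls lay in the range of the CXCL10 libraries. Its log2 fold change was -0.15 ± 0.28 (SE, edgeR adjusted p = 0.927, 95% interval -0.76 to 0.45), which was 0.06 without control replicate 1. LTA, the gene of lymphotoxin alpha (plus strand, 31572054 to 31574324), had 0, 6 and 0 reads with CXCL10, against 0, 4 and 2 reads in controls. A limit of 3 fragments is up to 6 reads here, since each mate counts as a read, and corresponds to 0.139 to 0.179 CPM per library. No library exceeded that limit for LTA, so no fold change is given, and a difference was not detectable at this depth. The limit covers counting error only.

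TNFSF9, TNFSF14 and TNFSF15 encode ligands known for costimulating T cells. TNFSF14 (LIGHT), a ligand of LTBR and TNFRSF14, lies on the minus strand of chromosome 19 from 6661253 to 6670588 and had the most reads of the family, 1172 to 1541 per library. It had 33.3, 31.2 and 43.2 CPM in CXCL10 replicates 1, 3 and 4, against 30.3, 31.5 and 39.3 CPM in control replicates 1, 3 and 4. Replicate 4 was the highest library in both groups. The log2 fold change was 0.09 ± 0.16 (SE, edgeR adjusted p = 0.922), and its 95% interval, -0.26 to 0.44, was the narrowest of the 8. Without CXCL10 replicate 4 the value was -0.06, and without control replicate 4 it was 0.22.

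The 3 genes nearest to TNFSF14 among 10296 by the same measure were SETD1B, a histone methyltransferase gene, TSPAN15, a tetraspanin gene, and PIGR, which encodes the polymeric immunoglobulin receptor. Their root-mean-square differences were 0.063, 0.065 and 0.068 on the log2 scale. SETD1B had 20.5, 18.3 and 23.0 CPM with CXCL10, against 17.3, 18.1 and 21.9 CPM in controls. TSPAN15 had 5.04, 5.24 and 6.79 CPM with CXCL10, against 4.37, 4.82 and 6.04 CPM in controls. PIGR had 52.7, 50.5 and 60.5 CPM with CXCL10, against 46.7, 47.8 and 62.3 CPM in controls. Replicate 4 was the highest library of its group for all 3, as for TNFSF14, which again follows from the choice by pattern.

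TNFSF9 (4-1BB ligand), which binds TNFRSF9 on activated T cells, lies on the plus strand of chromosome 19 from 6531026 to 6535924. It had 4.56, 4.31 and 3.90 CPM in CXCL10 replicates 1, 3 and 4, against 4.45, 4.13 and 6.996 CPM in control replicates 1, 3 and 4. Control replicate 4 was the highest library, in the opposite direction to TNF, and the other 5 libraries lay close together. A log2 fold change of -0.28 ± 0.23 (SE, edgeR adjusted p = 0.802, 95% interval -0.77 to 0.21) was -0.0071 without control replicate 4. TNFSF15 (TL1A), the ligand of the death-domain receptor TNFRSF25, lies on the minus strand of chromosome 9 from 114784652 to 114806039. It had 2.32, 4.27 and 3.98 CPM in CXCL10 replicates 1, 3 and 4, against 3.52, 4.55 and 2.51 CPM in control replicates 1, 3 and 4. Low libraries were CXCL10 replicate 1 and control replicate 4, and the group means were alike at 3.52 ± 1.05 CPM with CXCL10 and 3.53 ± 1.02 CPM in controls (SD, n = 3 each). The log2 fold change was -0.0026 ± 0.28 (SE, edgeR adjusted p = 0.999), with a 95% interval from -0.60 to 0.60. It was 0.22 without CXCL10 replicate 1, 0.24 without control replicate 3 and -0.19 without control replicate 4.

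TNFSF10 and TNFSF12 encode TRAIL and TWEAK, ligands tied to cell death. TNFSF10, whose product can trigger apoptosis through TNFRSF10A and TNFRSF10B, lies on the minus strand of chromosome 3 from 172505508 to 172523475. It had 1.35, 2.76 and 1.85 CPM in CXCL10 replicates 1, 3 and 4, against 1.68, 2.49 and 2.66 CPM in control replicates 1, 3 and 4. CXCL10 replicate 3 was the highest and CXCL10 replicate 1 the lowest of all 6 libraries. The log2 fold change was -0.19 ± 0.31 (SE, edgeR adjusted p = 0.911, 95% interval -0.85 to 0.47), or 0.02 with CXCL10 replicate 1 left out and -0.50 with CXCL10 replicate 3 left out. TNFSF12 (plus strand of chromosome 17, 7549058 to 7557890) had 0, 2 and 0 reads with CXCL10, against 2, 0 and 0 reads in controls, at or under the same limit of 6 reads. Reads over exons shared with another gene were left out of the counts, and 32.7% of the TNFSF12 exon length is shared, most of it with the readthrough gene TNFSF12-TNFSF13, which had 0 reads in all 6 libraries. The rest is opposite AC016876.3, which had 3, 5 and 0 reads with CXCL10, against 1, 7 and 5 reads in controls, and the counts do not separate the strands.

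TNFSF13 and TNFSF13B encode APRIL and BAFF, which sustain B cells and plasma cells. TNFSF13B, the gene of BAFF, lies on the plus strand of chromosome 13 from 108251240 to 108308484. It had the lowest unadjusted p in edgeR's test among the tested members (0.117). It had 2.53, 4.41 and 2.41 CPM in CXCL10 replicates 1, 3 and 4, against 2.59, 1.56 and 2.51 CPM in control replicates 1, 3 and 4. CXCL10 replicate 3 was high and control replicate 3 low, while the other 4 libraries lay between 2.41 and 2.59 CPM. The means were 3.12 ± 1.12 CPM with CXCL10 and 2.22 ± 0.572 CPM in controls (SD, n = 3 each). Its log2 fold change was 0.50 ± 0.30 (SE, edgeR adjusted p = 0.743), with a 95% interval from -0.14 to 1.13. Among the fits with 1 library left out it was smallest without a replicate 3, at 0.17 without that of CXCL10 and 0.31 without that of the controls.

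TNFSF13, the gene of APRIL (plus strand of chromosome 17, 7558292 to 7561608), had 2.05, 1.28 and 1.99 CPM in CXCL10 replicates 1, 3 and 4, against 1.55, 2.59 and 0.837 CPM in control replicates 1, 3 and 4. The controls held both the highest and the lowest of the 6 libraries. Its log2 fold change was 0.08 ± 0.37 (SE, edgeR adjusted p = 0.974, 95% interval -0.72 to 0.89), which was -0.23 without control replicate 4 and 0.57 without control replicate 3. Of the TNFSF13 exon length 55.5% is shared with TNFSF12-TNFSF13, so its counts come from the remaining 1013 of 2276 bases and may understate its level.

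**Figure D2:**
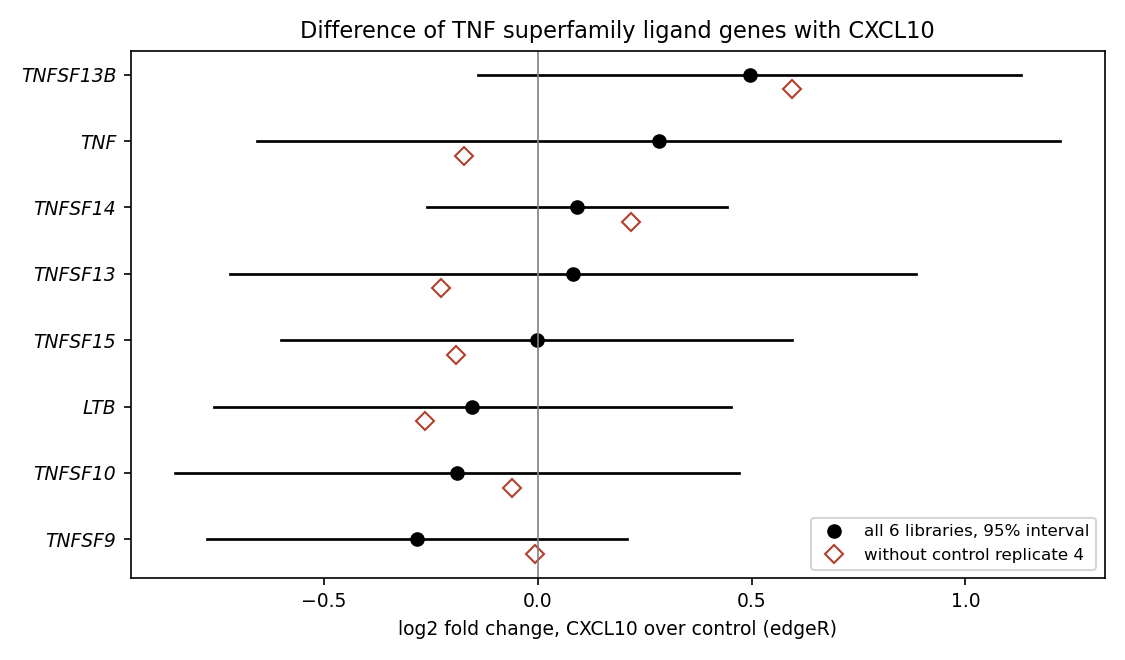
Log2 fold change of CXCL10 over control for the 8 tested ligand genes, with black dots and lines for edgeR's estimate and 95% interval over all 6 libraries, and red diamonds without control replicate 4. Every interval spans 0, and the values of TNF and TNFSF13 change sign without that library.

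Seen by library, TNF and TNFSF13 were lowest in control replicate 4, at centred log2 CPM values of -1.97 and -0.91 (the mean of the 6 libraries is 0), and TNFSF9 was highest there, at 0.59. That makes 2 of 8 members with their lowest level in that library, where 29.3% of all genes tested had theirs, and 1 of 8 with their highest, where 25.8% did. Centred log2 values of TNFSF14 stayed between -0.19 and 0.32. TNFSF13B ran from -0.69 in control replicate 3 to 0.78 in CXCL10 replicate 3. No library was the lowest for more than 2 of the 8 members or the highest for more than 3. The one that was highest for 3, TNF, TNFSF13 and TNFSF15, was control replicate 3, where 8.63% of all genes tested had their highest level. That library was picked for having the most. For TNF it barely exceeded CXCL10 replicate 3, at 0.575 against 0.566, and for TNFSF15 it was at 0.41 against 0.32.

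**Figure D3:**
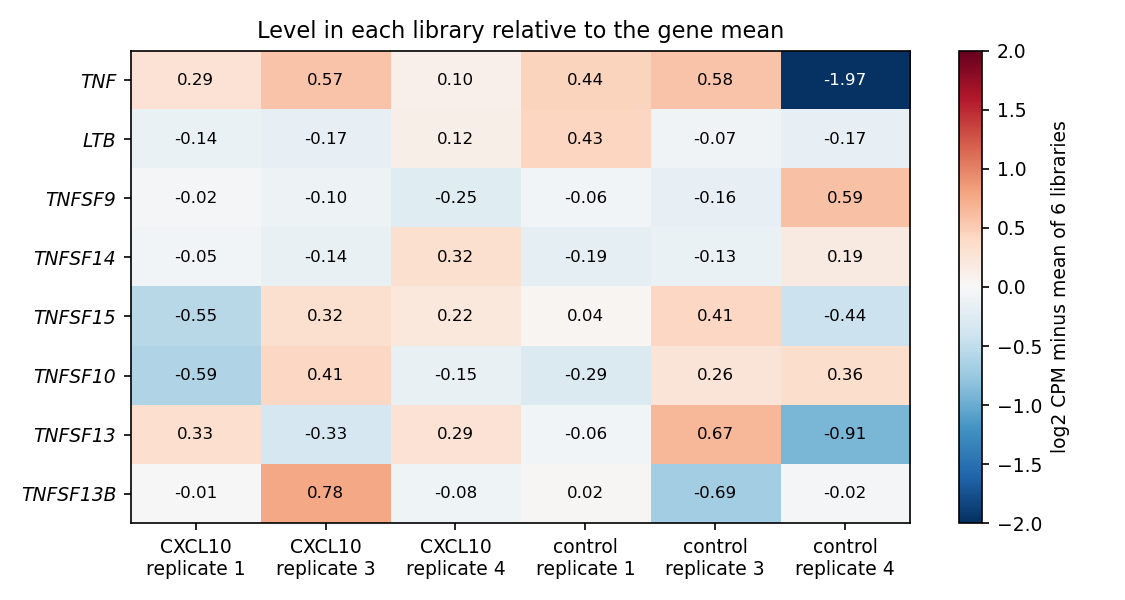
Log2 CPM of each tested ligand gene in each library minus the gene's mean over the 6 libraries; red is above and blue below the mean. The darkest cell is TNF in control replicate 4 at -1.97, and TNFSF9 is at 0.59 in the same library.

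Levels of different ligands can be set side by side only per length, here as CPM per kb of exon. TNFSF14 averaged 7.51 ± 1.34 CPM per kb with CXCL10 and 7.05 ± 1.02 in controls (SD, n = 3 each), and its lowest library, at 6.35, was above every library of every other member. TNFSF9 came next with 2.60 ± 0.204 CPM per kb with CXCL10 and 3.18 ± 0.962 in controls, and its lowest library, at 2.39, was above the highest TNF library, at 2.24. The level of TNFSF14 was 2.52-fold that of TNFSF9 over the 6 libraries. Below them the ranges of neighbours overlapped: TNF averaged 1.89 ± 0.314 CPM per kb with CXCL10 and 1.54 ± 1.03 in controls, and LTB averaged 1.097 ± 0.126 with CXCL10 and 1.22 ± 0.292 in controls. TNFSF13B, TNFSF13, TNFSF10 and TNFSF15 followed with means over the 6 libraries of 0.872, 0.754, 0.619 and 0.453 CPM per kb. LTA and TNFSF12 were at most 0.080 and 0.027 CPM per kb in any library, below the lowest TNFSF15 library at 0.298. Scaled to the exon length that no other gene shares, TNFSF13 averaged 1.69 CPM per kb, beside 1.72 for TNF. On that scaling its highest library, at 2.56, lay above the lowest TNFSF9 library, so TNFSF9 and TNFSF13 then overlapped.

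**Figure D4:**
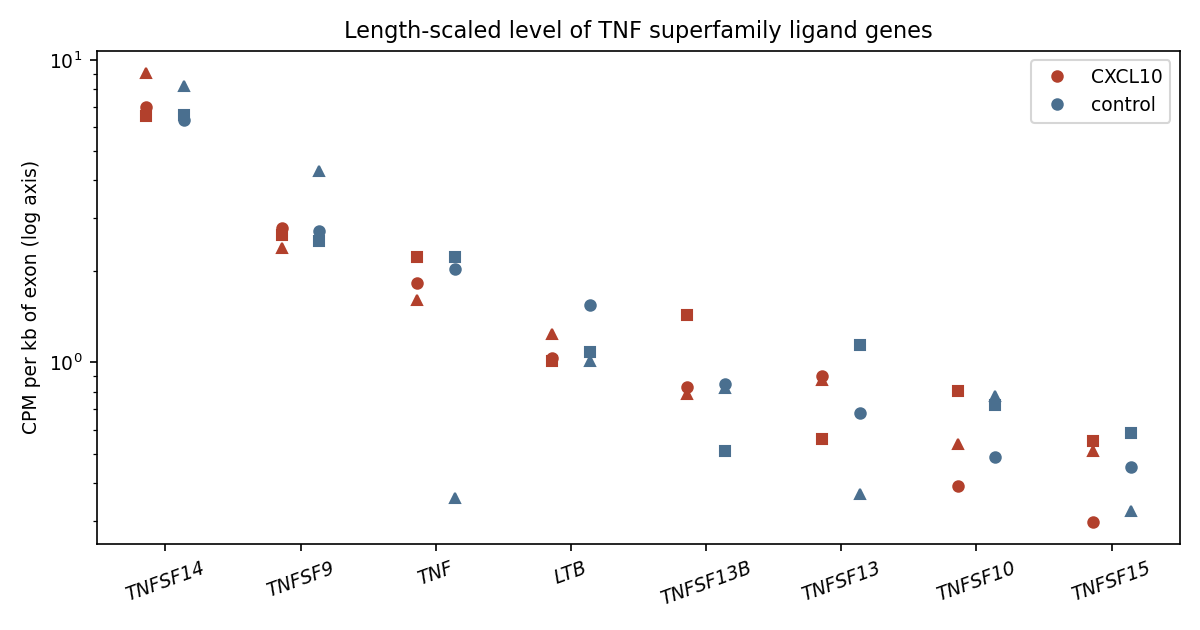
CPM per kb of exon on a log axis for the 8 tested ligand genes, ordered by their mean, with CXCL10 libraries in red on the left and control libraries in blue on the right of each gene; circles, squares and triangles are replicates 1, 3 and 4. TNFSF14 lies highest, from 6.35 to 9.04, and the genes from TNF downward overlap with their neighbours. For TNF and LTB the overlap rests on control replicate 4, and for LTB and TNFSF13B on CXCL10 replicate 3.

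Genes around the ligands also gave no call in edgeR's test over all genes. These lists were textbook groups. Of 16 receptors that bind the ligands 12 were tested, with 8 above 0, 4 below 0, 0 called and a median log2 fold change of 0.05. Without control replicate 4 the receptors had 5 above and 7 below 0, with a median of -0.015, and the median ran from 0.010 to 0.13 with each of the other libraries left out in turn. Lowest in p was TNFRSF12A, the TWEAK receptor, with 47.1, 40.9 and 48.4 CPM with CXCL10, against 51.3, 53.2 and 60.4 CPM in controls. Its groups did not overlap, its log2 fold change was -0.27 ± 0.14 (SE, edgeR adjusted p = 0.702), and without control replicate 4 it was -0.20. TNFRSF10B and TNFRSF10A, the TRAIL death receptors, had 0.22 ± 0.19 and 0.17 ± 0.21, and TNFRSF9 had -0.11 ± 0.17 (SE). Without control replicate 4 these 3 were at -0.012, 0.020 and -0.21. The receptors of TNF were well expressed, TNFRSF1B at 172 to 228 CPM and TNFRSF1A at 84.2 to 110 CPM over the 6 libraries. TNFRSF13B, a receptor of BAFF and APRIL, had 0 reads in all 6. TNFRSF6B, a soluble decoy receptor, shares 100% of its exon length with other genes, so the counting could give it no reads and its level is not known. These 4 receptors were named for their level, after their values had been seen.

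Enzymes and partners that process the ligands were all tested, with 6 of 9 above 0, 0 called and a median of 0.08. Without control replicate 4 only 3 of the 9 were above 0 and the median was -0.018, and without control replicate 1 the median was 0.17. ADAM17, the protease that sheds TNF from the membrane, had 38.6, 46.7 and 52.7 CPM with CXCL10, against 32.6, 37.0 and 13.3 CPM in controls. Every CXCL10 library lay above every control, and control replicate 4 was the lowest by far. The log2 fold change was 0.73 ± 0.28 (SE, edgeR adjusted p = 0.683, unadjusted p = 0.0187), and without control replicate 4 it was 0.40 ± 0.16. ADAM10, another sheddase, had 0.30 ± 0.17, and FRMD8 and RHBDF1, which act with ADAM17, had 0.14 ± 0.19 and 0.13 ± 0.18, which were -0.068 and -0.017 without control replicate 4. Among proteins that bind TNF mRNA or take part in its decay, 10 of 11 were above 0, 0 were called and the median was 0.07, which was 0.04 with 8 of 11 above 0 without control replicate 4 and 0.16 without CXCL10 replicate 1. CNOT1, the scaffold of the deadenylase complex, had 0.49 ± 0.19 (SE, edgeR adjusted p = 0.683), and 0.29 without control replicate 4. ZFP36 (tristetraprolin), ZC3H12A (regnase-1) and RC3H1 (roquin-1) had 0.26 ± 0.17, 0.26 ± 0.21 and 0.21 ± 0.17. The value of ZC3H12A was 0.016 without control replicate 4, where it had 18.6 CPM.

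Members of the signalling complexes of TNF receptors were above 0 in 12 of 21 and called in 0, with a median of 0.05, which was -0.041 without CXCL10 replicate 3 and 0.020 without control replicate 4. SHARPIN, a subunit of the linear ubiquitin ligase, had -0.25 ± 0.14, and the adaptors FADD and TRADD had 0.54 ± 0.36 and -0.25 ± 0.17, with BIRC2, an inhibitor of apoptosis protein, at 0.24 ± 0.18. FADD, which shares 54.9% of its exon length with another gene, had its lowest level in control replicate 4 and a log2 fold change of 0.16 without that library. Genes known to be induced by TNF lay below 0 in 12 of 17 tested, with a median of -0.16 and 0 called. All genes tested had 8934 of 16531 above 0. Without control replicate 4 the list had a median of -0.23 and 16 of 17 below 0, where all genes tested had 8036 of 17116. At an unadjusted p under 0.05 in that fit, 4 of the 17 were lower, where all genes tested had 273 of 17116 lower. With all 6 libraries 2 of the 17 were lower, where all genes tested had 768 of 16531 lower. The count in either direction was 1 without control replicate 1, CXCL10 replicate 3 or CXCL10 replicate 4. It was 2 without control replicate 3 and 4 without CXCL10 replicate 1. The median was nearer to 0 without control replicate 3, at -0.067, and without CXCL10 replicate 4, at -0.085. IL1B and CCL20 had -0.42 ± 0.15 and -0.52 ± 0.20 (SE, edgeR adjusted p = 0.683 for both), and -0.51 and -0.77 without control replicate 4. TNFAIP2 had 0.32 ± 0.16 in the other direction (0.21 without control replicate 4), and RELB, an NF-kB subunit, had -0.26 ± 0.14. In bulk libraries, fewer cells that make a transcript and less of it per cell cannot be told apart.

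**Figure D5:**
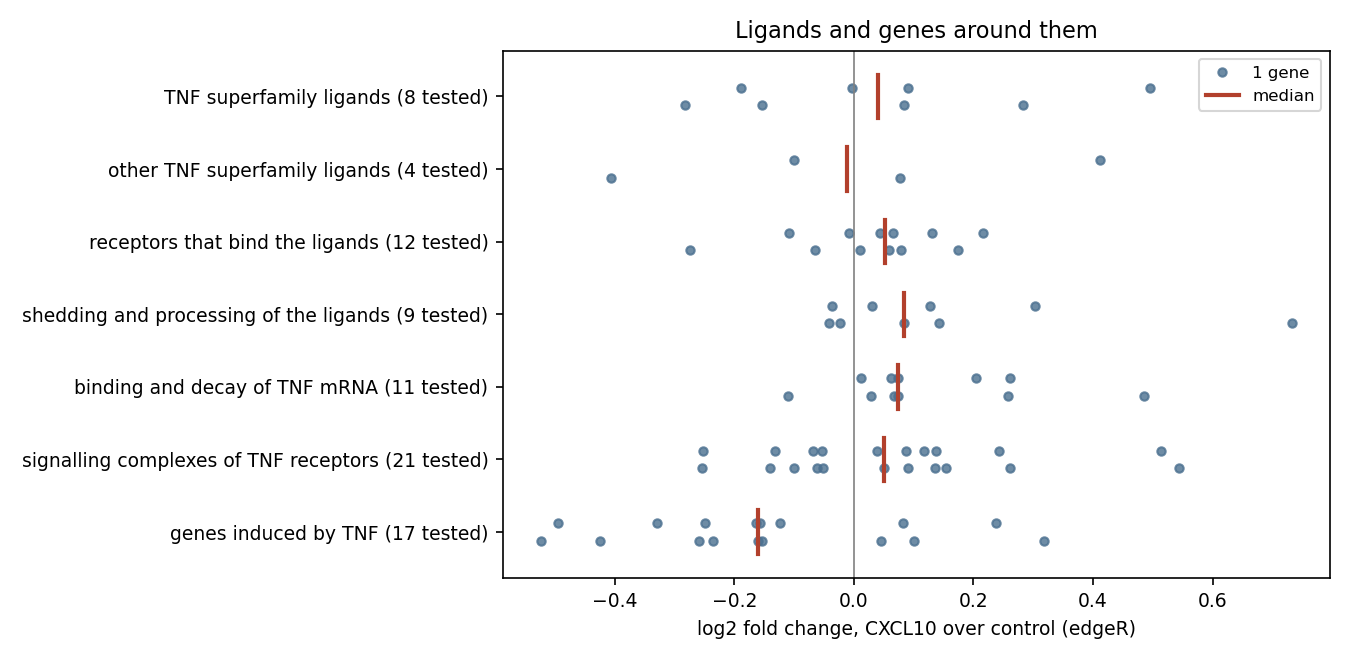
Log2 fold change of CXCL10 over control for every tested gene of the ligand family and of 6 lists around it (blue dots, 1 per gene; red bars are list medians). The medians lie between -0.16 for genes induced by TNF and 0.08 for shedding and processing, the second of which is -0.018 without control replicate 4, and no gene passed the test.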

How the data were processed

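Raw counts of reads per gene were deposited by the authors, 1 table per library, made with featureCounts 2.0.6 on exons of GENCODE 30 keyed by gene name, per the file headers. The submitters' processing notes name Trim Galore, STAR, Subread and the build hg38; for these no version is given in the sources used here. Per the file headers, reads rather than read pairs were counted, so that a fragment can count as 2, no strand was set, and reads over several genes were left out. Among low counts, 75.8% were even in control replicate 4 and 66.8% to 68.05% in the other libraries.

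From these counts, CPM was computed here with TMM-scaled totals, and per kb with the deposited exon length. Marker sums alone used the unadjusted library totals. The test was edgeR's, version 4.0.16 under R 4.3.3 (filterByExpr, TMM, quasi-likelihood fit on group over all 6 libraries, Benjamini-Hochberg over 16531 genes, threshold 0.05). It was also run on simulated counts. In these no library stood apart as control replicate 4 did, so they do not show how the test performs on the real libraries. Standard errors come from the fold change and its F statistic. Alternatives used DESeq2 1.42.0 and limma-voom (limma 3.58.1), other scalings and filters, halved counts, removal of the length trend, a replicate block, and each library left out in turn. Removing the length trend together with control replicate 4 was chosen after seeing the data. No 2 libraries held counts that agreed within sampling noise. The rule for named genes took all members, up to 4 genes per other list by p-value, the 3 genes nearest in pattern to TNF and to the most abundant member, and genes that overlap a member. Receptors named for their level or absence, and the 4 ligand genes outside the members that were too low to test, were named after their values had been seen. Members and lists were chosen with earlier results of these data known.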

Additional observations from a re-analysis of the deposited data

How the results depend on the processing

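Of 17 alternatives to the reported fit, 0 called a member. Among all genes 0 were called in every alternative except the one with no filter on low counts, which called 137 (45 higher, 92 lower) among 30869 genes and 0 of the 10 ligands. The median of the 8 tested ligands ran from -0.12 to 0.15 with 1 library left out. The sign held in all 17 alternatives for TNFSF13B alone, at 0.17 to 0.65, and its lowest unadjusted p was 0.0399, when control replicate 4 was left out and the length trend removed. With 1 library left out the log2 fold changes ran from -0.17 to 0.66 for TNF, -0.26 to 0.062 for LTB, -0.41 to -0.0071 for TNFSF9, -0.50 to 0.024 for TNFSF10, -0.23 to 0.57 for TNFSF13, -0.064 to 0.22 for TNFSF14 and -0.19 to 0.24 for TNFSF15. When control replicate 4 was left out and the length trend removed they were -0.070 for TNF, 0.093 for TNFSF9 and -0.16 for TNFSF13, against the reported sign. TNFSF15 also turned to 0.073 when scaled by library size alone, where the median of all genes was 0.10, and to 0.00049 with at least 1 CPM in 3 libraries, and LTB to 0.0041 with the length trend removed; the cause was not tested. Replicate numbers did not pair the libraries: deviations of same-numbered libraries had correlations of 0.03, 0.02 and -0.05, and not every library correlated best with its own number. With the replicate block 0 genes and 0 members were called (1323 and 1181 genes at an unadjusted p under 0.05 with and without it), and the median of the ligands was 0.04. The 7 tested ligands other than TNFSF14 had 20 to 234 reads per library, and 95% intervals reached from -0.85 to 1.22 over the 8. For TNF, which holds the upper end, the standard error was 0.44 with all libraries and 0.23 without control replicate 4.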

Other observations

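Another 8 ligand genes of the superfamily lie outside the 10 described. CD70, the ligand of CD27, was the most abundant of them by CPM, with 17.2, 12.2 and 14.6 CPM with CXCL10, against 17.5, 14.2 and 15.6 CPM in controls. These CPM values are not scaled per kb of exon. CD70 has 1530 exon bases where TNFSF14 has 4778. Per kb of exon CD70 therefore lay above TNFSF14 in every library, and TNFSF14 ranks highest only among the 10 members. TNFSF4, the OX40 ligand, had 4.99, 9.18 and 6.17 CPM with CXCL10, against 5.28, 5.48 and 4.54 CPM in controls, a log2 fold change of 0.41 ± 0.23 (SE, edgeR adjusted p = 0.716). CXCL10 replicate 3 was its highest library, as for TNFSF13B and TNFSF10, and for 25.5% of all genes tested. TNFSF18, the GITR ligand, had 4.05, 6.24 and 4.07 CPM with CXCL10, against 7.43, 9.39 and 2.18 CPM in controls, and its lowest library was control replicate 4, as for TNF. Its log2 fold change was -0.41 ± 0.38 (SE, edgeR adjusted p = 0.829), and -0.81 ± 0.22 without control replicate 4 (unadjusted p = 0.00141, adjusted p = 0.997). TNFSF11, the gene of RANK ligand, had 2.10 to 3.76 CPM with CXCL10 and 2.63 to 3.02 CPM in controls. CD40LG, FASLG, TNFSF8 and EDA had too few reads to be tested.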
